A study of Caenorhabditis elegans with 16 samples.

Results

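Males of Caenorhabditis elegans that carry a prg-1 RNase mutation were compared with wild type males by small RNA sequencing. All 3 libraries titled prg-1 RNase mutant and all 5 titled Wild Type were taken, 8 of the 16 libraries in the series. The series asked how mutations of prg-1 alter piRNA levels in males, and its design text calls this allele RNase dead. The remaining libraries, 5 from prg-1 null males and 3 from males whose PRG-1 lacks the PAZ domain, entered the fit over genome bins, and the null males serve below as a second reference. All groups were whole adult males cultured at 25 °C, with 20 to 30 males pooled per sample and RNA taken 24 hours after the mid-L4 stage. The labels give neither the substitution nor the strain of the RNase mutant, and small RNA counts do not check the allele. The labels do not tie replicates to separate cultures; p-values therefore reflect the spread among these libraries, part of which may be technical. In whole animals, fewer cells of a type and less RNA per cell cannot be told apart.

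PRG-1 is the Piwi-class Argonaute of this worm, and it binds piRNAs, which are known here as 21U-RNAs because of their length and their first base. Most 21U-RNAs come from many small genes in a pair of clusters on chromosome IV and are trimmed from longer capped precursors. When PRG-1 finds a target transcript in the germline, RNA-dependent RNA polymerases make secondary small RNAs (22G-RNAs) along that transcript. Those carry a 5′ triphosphate, and the RNA here was treated with a pyrophosphatase, which lets such molecules be cloned beside piRNAs and miRNAs.

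The RNase libraries held 2258068, 1377683 and 1117777 genome-mapped reads, and the wild type libraries between 781546 and 1860189. Genome-mapped reads made up 70.3, 77.5 and 70.4% of all reads in the RNase libraries and 39.8 to 68.3% in wild type, so the groups did not overlap (exact permutation p = 0.0357, two-sided, the smallest that 5 against 3 libraries allow). Across the 1006 genome bins of 100 kb, the rank correlation was 0.969 to 0.978 among RNase libraries, 0.827 to 0.970 among wild type libraries and 0.756 to 0.835 between the genotypes. The 3 bins with most wild type reads took 24.5 ± 8.65% of reads in wild type (SD, n = 5) and 11.9 ± 2.11% in the RNase mutant (n = 3), and rRNA gene bins took 13.7 ± 7.19% and 5.80 ± 1.69%. The shares of the 3 bins did not overlap between the genotypes. The bins were chosen for their mean in these wild type libraries, which favours a lower share in the mutant, so nothing is concluded from that difference. Results below are also given with these bins left out of the denominator. The rRNA shares overlapped (6.71 to 25.1% in wild type, 4.40 to 7.68% in the mutant; exact permutation p = 0.0714), and their part in the results was not tested. Wild type replicates 4 and 5 have titles of another form than the other 6 libraries, so values against wild type replicates 1 to 3 alone are given beside the main pooled measures.

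Reads at piRNA loci divided into 21U only reads, whose levels overlapped between the genotypes, and remaining sense reads, which every RNase library held at a higher level than any wild type library. Reads counted as 21U only were at 1265, 1267 and 734 reads per 1000000 genome-mapped reads (RPM) in RNase replicates 1 to 3. In wild type replicates 1 to 5 they were at 1354, 2207, 974, 484 and 1311 RPM, so every RNase value lay inside the wild type range. The ratio of means was 0.860 (exact permutation p = 0.714), and its direction changed with the scaling: it was 0.758 when the 3 largest bins were left out of the denominator and 1.12 per 1000000 total reads. Against wild type replicates 1 to 3 it was 0.720 (exact permutation p = 0.4).

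The remaining sense reads, here called other sense reads, were at 2506, 2265 and 1427 RPM in the RNase libraries. The wild type libraries had 808, 997, 627, 645 and 791 RPM, so even the lowest RNase library exceeded the highest wild type library. The means were 2066 ± 566 RPM (SD, n = 3) and 774 ± 149 RPM (n = 5), a ratio of 2.67 (exact permutation p = 0.0357, adjusted p = 0.0643 over 9 measures). The groups stayed apart under each denominator, with a ratio of 2.30 without the 3 largest bins and 3.58 per 1000000 total reads (exact permutation p = 0.0357 in each case). Against wild type replicates 1 to 3 the ratio was 2.55 (exact permutation p = 0.1, the smallest possible). The adjusted p did not pass 0.05 for any of the 9 measures.

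As a share of all sense piRNA reads, 21U only reads made up 33.5% (Wilson 95% interval 32.5 to 34.6%), 35.9% (34.5 to 37.2%) and 34.0% (32.1 to 35.9%) in the RNase libraries. The wild type shares were 62.6, 68.9, 60.8, 42.9 and 62.4%, with wild type replicate 4 nearest to the mutant and also lowest in depth, at 882 piRNA reads (interval 39.6 to 46.1%). Such intervals describe counting error alone, because amplified reads are not independent molecules. The mean share was 34.5 ± 1.24% in the RNase mutant and 59.5 ± 9.81% in wild type, without overlap (ratio 0.579, exact permutation p = 0.0357, adjusted p = 0.0643), and the ratio was 0.538 against wild type replicates 1 to 3. On the antisense strand of these loci the RNase libraries had 210, 221 and 135 RPM and the wild type libraries 90.2, 137, 67.0, 115 and 146 RPM. RNase replicate 3 lay below wild type replicates 2 and 5 (ratio 1.70, exact permutation p = 0.107). Relative to sense reads, antisense reads were 6.03 ± 0.400% in the mutant and 5.95 ± 2.65% in wild type. The RNase libraries had 5.57, 6.27 and 6.25%, and wild type replicates 1 to 5 had 4.17, 4.26, 4.18, 10.2 and 6.93%. Every RNase library thus lay above wild type replicates 1 to 3 and below replicates 4 and 5. The sum of both sense classes was 3771, 3532 and 2161 RPM against 1129 to 3203 RPM in wild type (ratio 1.55, exact permutation p = 0.107), or 1.35 without the 3 largest bins in the denominator. Against wild type replicates 1 to 3 the ratio was 1.93 for antisense reads and 1.36 for this sum.

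**Figure D1:**
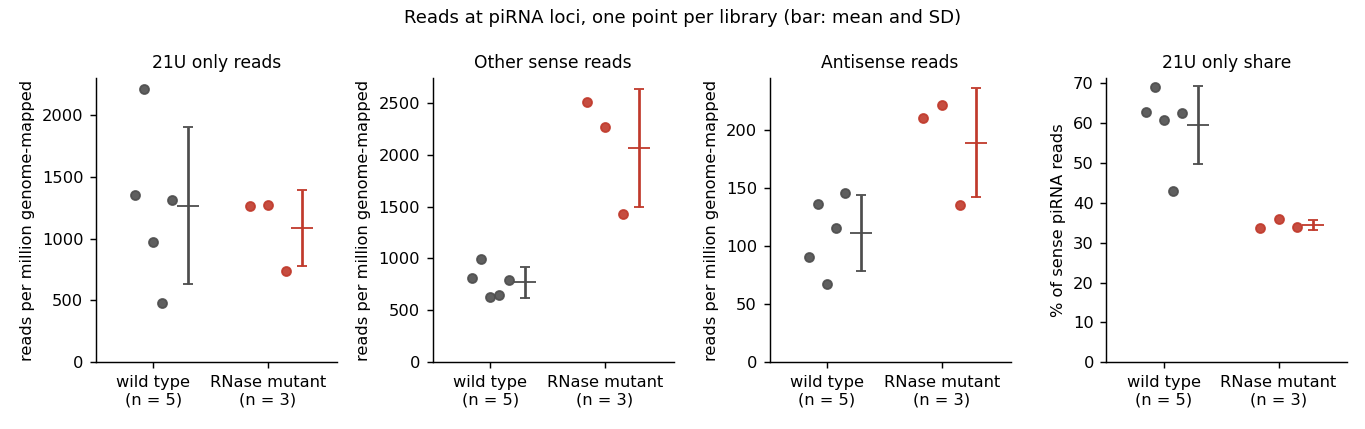
Reads at piRNA loci in each library, in RPM for 21U only, other sense and antisense reads, and the 21U only share in percent of sense reads (points: libraries, bars: mean and SD, 5 wild type and 3 RNase libraries). The 21U only values overlap, other sense reads start at 1427 RPM in the mutant against at most 997 RPM in wild type, and the 21U only share is at most 35.9% in the mutant against at least 42.9% in wild type.

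The 100 piRNAs with most reads held a smaller share of sense reads in each RNase library than in any wild type library. At equal genome-mapped depth 894, 811 and 512 piRNAs were detected in the RNase libraries, and 507, 647, 334, 149 and 444 in wild type (ratio 1.78, exact permutation p = 0.0714). When each library was thinned to 882 piRNA reads, 470, 444 and 384 were detected against 149 to 362, and the groups did not overlap (ratio 1.46, exact permutation p = 0.0357, adjusted p = 0.0536). The first 100 held 43.9, 48.2 and 53.2% in the RNase libraries against 60.5 to 91.3% in wild type, with wild type replicate 4 highest. The first 10 loci took 17.5 ± 2.47% in the mutant and 27.0 ± 1.58% in wild type, and the first 200 took 64.4 ± 6.93% and 83.6 ± 10.4%. Thinned to equal piRNA reads, the 100 loci still took 54.2 ± 3.99% against 72.9 ± 10.7% (exact permutation p = 0.0357, adjusted p = 0.0643). The ratios against wild type replicates 1 to 3 were 1.49 for piRNAs detected at equal depth and 0.759 for the share of the first 100. Which piRNAs these are was not compared, because the rows of the per-piRNA table do not follow the same order in both genotypes.

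**Figure D2:**
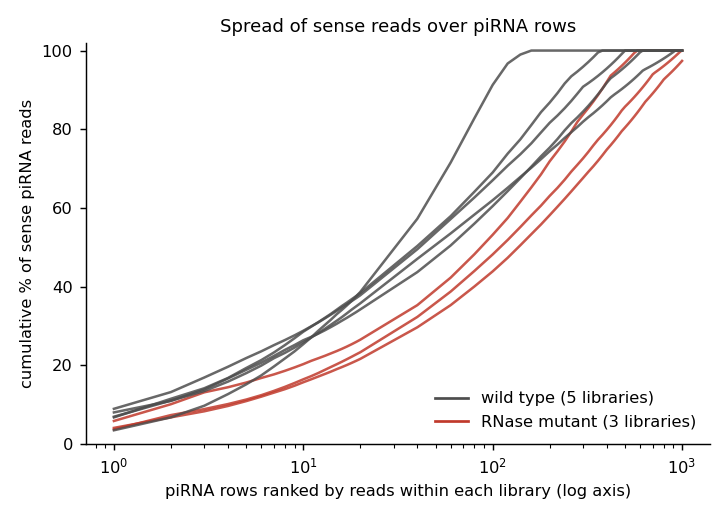
Cumulative percentage of sense piRNA reads against the rank of a piRNA locus within its own library (log axis), 1 line per library, 5 wild type and 3 RNase. At rank 100 the RNase lines lie between 43.9 and 53.2% and the wild type lines between 60.5 and 91.3%.

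Of the regions that hold most piRNA genes, cluster 2 had overlapping shares of reads and cluster 1 did not. Cluster 2 (IV 13500001 to 17200000, ce11, 11388 annotated piRNA genes in 37 bins) held 1.44, 1.33 and 1.45% of all genome-mapped reads in the RNase libraries and 1.07 to 1.78% in wild type. In cluster 2, 5 of 37 bins were higher and 5 lower, near the 14.4% and 16.6% of all bins called in these directions by the edgeR fit described below. Cluster 1 (IV 4500001 to 7000000, 2816 piRNA genes in 25 bins) held 8.55 to 8.95% in the RNase libraries, above the 3.56 to 7.66% of wild type, with 6 of 25 bins higher and 3 lower, beside the same 14.4% and 16.6%. The ratio of cluster 1 shares was 1.29 against wild type replicates 1 to 3. The gain of cluster 1 was largest in bin IV 5500001 to 5600000, which holds mir-228 beside 211 piRNA genes and went from 25379 ± 8464 to 63070 ± 3021 RPM (1.31, SE 0.46, edgeR adjusted p = 0.0349). That call held in 2 of the 8 fits that left out 1 library. The other 24 bins of cluster 1 held 2.41 ± 0.105% of reads in the mutant and 3.11 ± 1.31% in wild type, with overlapping groups.

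Over the whole genome, 312 of 1006 bins were called, 31.0% of those tested (edgeR quasi-likelihood F test with all 4 genotypes, p adjusted by Benjamini-Hochberg and under 0.05). Of these, 145 (14.4%) were higher and 167 (16.6%) lower in the RNase mutant. All RNase libraries lay above all wild type libraries in 167 bins (16.6%), 135 of them called, and below them in 156 bins (15.5%), 127 of them called. The median log2 fold change over all bins was -0.12, and log2 fold changes below are on this scale. TMM factors brought the median to -0.00 and gave 212 higher and 167 lower bins. With library sizes without the 3 largest bins it was -0.35, with 119 higher and 275 lower. Against wild type replicates 1 to 3 alone, 305 bins were called, 159 higher and 146 lower, of which 251 were among the 312.

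The called bins moved a large part of the library. Bins called higher took 16.2 ± 4.47% of wild type reads (n = 5) and 43.9 ± 0.707% of RNase reads (n = 3), and bins called lower took 17.1 ± 3.17% and 4.16 ± 0.272%. These sums describe bins chosen on the same libraries.

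**Figure D3:**
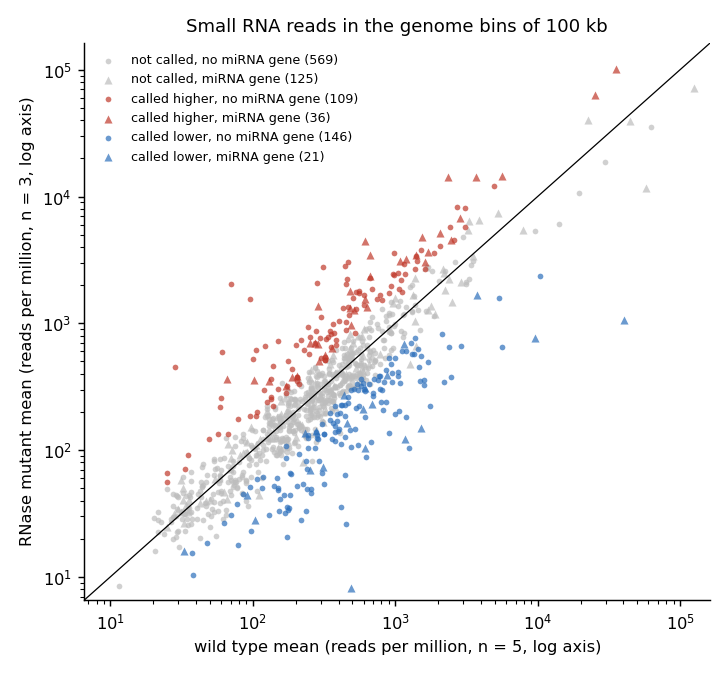
Mean RPM in wild type (5 libraries) against the RNase mutant (3 libraries) for 1006 bins of 100 kb, both axes logarithmic, with triangles for bins that hold a miRNA gene and colours for the edgeR call. The 145 higher bins lie above the line of equality and reach 101225 RPM in the mutant, and the 167 lower bins include 1 at 8.20 RPM in the mutant.

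The steepest rises were in bins of protein-coding genes without an annotated miRNA. Bin V 9800001 to 9900000, with 21 protein-coding genes that include several chemoreceptor genes, was at 1943, 1974 and 2237 RPM in the RNase libraries. In wild type it was at 67.3, 62.4, 97.1, 74.2 and 53.4 RPM, so all RNase libraries stood far above all wild type libraries (log2 fold change 4.86, SE 0.43, edgeR adjusted p = 3.77e-08). The null males had 74.6 ± 70.2 RPM (n = 5) and the males without the PAZ domain 53.1 ± 6.68 RPM (n = 3), both near wild type. Bin III 2500001 to 2600000, which holds apb-1, a clathrin adaptor subunit, and 14 other protein-coding genes, was at 1592, 1410 and 1667 RPM against 65.1 to 112 RPM (4.02, SE 0.27). There too the null was close to wild type, at 92.7 ± 26.8 RPM.

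Bin X 1100001 to 1200000 held 667, 361 and 319 RPM in the RNase libraries against 10.2 to 51.4 RPM (log2 fold change 3.96, SE 0.39), and X 1500001 to 1600000 held 870, 515 and 404 RPM against 31.1 to 87.4 RPM (3.31, SE 0.31). In both, RNase replicate 1 was the highest library. Bin V 17600001 to 17700000 was at 2776, 2907 and 2700 RPM against 216 to 389 RPM (3.16, SE 0.27), while the null had 115 ± 18.7 RPM. There the males without the PAZ domain had 656 ± 272 RPM and were themselves higher than wild type (1.07, edgeR adjusted p = 0.0229). Tested directly, all 5 of these bins were higher in the RNase mutant than in the null, by 3.77 to 4.78 on the log2 scale (edgeR adjusted p at most 5.16e-08). They were chosen for their rise over wild type in the same RNase libraries, so this is not an independent test of the rise.

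A second set of rises was also present in null males. Bin II 10900001 to 11000000, which holds nos-1, a nanos homolog, and gst-5, was at 3105, 2393 and 3579 RPM in the RNase libraries and 317 to 621 RPM in wild type (2.69, SE 0.26). The null had 2833 ± 291 RPM, and the difference between both mutants was 0.09 (adjusted p = 0.839). Bin III 10000001 to 10100000, with mir-1020 and insulin-like peptide genes ins-21 to ins-23, was at 4681, 4187 and 4432 RPM against 400 to 724 RPM (2.85, SE 0.28), with 3201 ± 393 RPM in the null. Bin III 2900001 to 3000000 holds daf-2, the insulin receptor gene. It was at 1471, 2159 and 2597 RPM against 170 to 417 RPM in wild type (2.89, SE 0.29), and the null lay between them at 989 ± 162 RPM. Bin III 9400001 to 9500000, with cpar-1 and 3 snRNA genes among its members, was likewise highest in the RNase mutant (2841 ± 420 RPM), lower in the null (1044 ± 139 RPM) and lowest in wild type (443 ± 95.1 RPM).

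The deepest falls reached near absence. Bin X 200001 to 300000, which holds mir-258.1 and mir-258.2 beside set-28, went from 340, 495, 346, 540 and 732 RPM in wild type to 4.43, 9.44 and 10.7 RPM (log2 fold change -5.95, SE 0.45, edgeR adjusted p = 3e-09). Bin X 16700001 to 16800000, with hda-4 and aak-2, the latter a catalytic subunit of AMP-activated kinase, went from 290 to 540 RPM in wild type down to 26.1, 26.1 and 25.9 RPM (-4.12, SE 0.40). The null was as low in both bins, at 14.9 ± 5.65 and 28.7 ± 15.1 RPM. Bins V 17700001 to 17800000 (414 ± 165 to 35.3 ± 6.87 RPM) and IV 17000001 to 17100000 (1510 ± 495 to 148 ± 32.9 RPM) had log2 fold changes of -3.55 (SE 0.37) and -3.35 (SE 0.34). IV 17000001 to 17100000 lies in cluster 2 and holds 178 piRNA genes beside snr-1, a core spliceosomal protein gene.

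In at least 2 of the steepest falls the RNase mutant was also lower than the null. Bin I 2900001 to 3000000, with mir-4931, an snoRNA gene and parp-1, a poly-ADP-ribose polymerase gene, had 82385, 27106, 50299, 38181 and 3003 RPM in wild type. In the RNase libraries it held 1030, 1021 and 1154 RPM, below even wild type replicate 5 (-5.23, SE 0.99, edgeR adjusted p = 0.000332), while the null held 8575 ± 8713 RPM. Bin I 10800001 to 10900000, with mir-1817 and a tRNA gene, had 2312 to 15557 RPM in wild type, 703 to 890 RPM in the RNase libraries (-3.64, SE 0.87) and 8767 ± 8992 RPM in the null. In the direct test the RNase mutant was lower than the null by 3.00 and 3.51 in these 2 bins (adjusted p = 0.0157 and 0.00424). Both bins were chosen for their fall in the same RNase libraries, so that test is not independent. For the further falls that follow, the null is not given here. V 20400001 to 20500000, with the ribosomal protein gene rpl-2 and 2 snoRNA genes, went from 1245 ± 434 to 104 ± 26.9 RPM, II 14900001 to 15000000 with mir-273 from 1168 ± 520 to 123 ± 34.3 RPM, and X 3300001 to 3400000 from 5593 ± 3232 to 649 ± 178 RPM. Bin V 4200001 to 4300000 went from 173 ± 273 to 20.8 ± 5.00 RPM, but wild type replicate 1 alone held 660 RPM, and without it the log2 fold change was -1.29 in place of -3.06.

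Of 999 pairs of adjacent bins, 107 had both bins called, where 31.0% of all bins were called. The calls were opposite in 54 of these, both higher in 26 and both lower in 27, and nothing particular to neighbours is read from these counts. Adjacent bins are described here only because a steep rise and a fall can lie next to each other. V 17600001 to 17700000 and V 17700001 to 17800000, described above, are such a pair. X 1200001 to 1300000 fell from 237 ± 85.3 to 33.3 ± 9.49 RPM (-2.83, SE 0.42) next to the rise at X 1100001 to 1200000. The null was low as well in that falling bin (20.3 ± 7.72 RPM) and in V 17700001 to 17800000 (34.4 ± 4.42 RPM). In neither was the RNase mutant called against the null (edgeR adjusted p = 0.209 and 0.959). V 9900001 to 10000000 fell from 291 ± 118 to 82.1 ± 8.39 RPM (-1.82, SE 0.41) next to the steepest rise of all. X 16800001 to 16900000 rose from 150 ± 16.4 to 728 ± 305 RPM (2.28, SE 0.25) beside the fall at X 16700001 to 16800000. A bin holds many genes on both strands, so the reads of a bin are not assigned here to any single gene.

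Bins of several miRNA families were higher in the mutant. The let-7 family acts in developmental timing, and the 3 bins that hold its members let-7, mir-48, mir-241 and mir-84 rose; the family has further members. The let-7 bin (X 14700001 to 14800000) was at 3976, 3109 and 3369 RPM in the RNase libraries and 531, 748, 646, 475 and 902 RPM in wild type (2.40, SE 0.34, edgeR adjusted p = 1.42e-05). The bin of mir-48 and mir-241 was at 2771 to 3750 RPM against 757 to 1746 RPM (1.44, SE 0.33), and that of mir-84 at 1265 to 2208 RPM against 289 to 694 RPM (1.90, SE 0.33). Groups did not overlap in any of the 3. The null held 680 ± 145 RPM in the let-7 bin and 297 ± 81.7 RPM in the mir-84 bin, neither called against wild type. In the bin of mir-48 and mir-241 the null held 1983 ± 216 RPM and was itself higher than wild type (0.74, adjusted p = 0.0486), and the RNase mutant was not called against the null (0.70, adjusted p = 0.144). The families were chosen after values were seen, so no test is given for a family as a whole.

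The mir-51 family, related to miR-100 of other animals, was split. The bin of mir-54, mir-55 and mir-56 was at 12861, 13894 and 16281 RPM against 615 to 4662 RPM (2.61, SE 0.53), and that of mir-51 and mir-53 at 4323, 4129 and 6047 RPM against 594 to 2842 RPM (1.64, SE 0.47). In both bins wild type replicates 4 and 5 were the lowest (615 and 958 RPM, then 594 and 606 RPM). Wild type replicates 1 to 3 held 2609 to 4662 RPM in the first bin and 1451 to 2842 RPM in the second. The mir-52 bin was at 1336, 1097 and 1120 RPM against 1191 to 2807 RPM and was not called (-0.68, SE 0.30, adjusted p = 0.0870). It was called lower in 6 of the 17 other fits. The call of the mir-51 and mir-53 bin ended without RNase replicate 3 (adjusted p = 0.0539). In the mir-72 family the mir-72 bin was at 11016, 16150 and 15600 RPM against 1731 to 6481 RPM (1.95, SE 0.44), and the bin of mir-73 and mir-74 at 5139, 5143 and 5311 RPM against 1577 to 2823 RPM (1.33, SE 0.31). In the mir-72 bin the null was itself higher than wild type (1.03, edgeR adjusted p = 0.0408), and the RNase mutant was not called against the null (0.92, adjusted p = 0.148). In the bin of mir-73 and mir-74 the RNase mutant was higher than the null (1.00, adjusted p = 0.0254).

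The mir-58 family, related to bantam of flies, holds some of the most abundant bins. The bin of mir-80, with mir-90 and mir-238, was at 93934, 114763 and 94978 RPM in the RNase libraries and 33286, 61754, 34338, 17645 and 29975 RPM in wild type (1.52, SE 0.48, edgeR adjusted p = 0.0202). It had the most reads of any bin in the mutant, but its call ended without RNase replicate 2 (adjusted p = 0.0728) and against wild type replicates 1 to 3 alone (adjusted p = 0.0933). The bins of mir-81 and mir-82 (40237 ± 2824 against 22738 ± 8427 RPM), mir-58.1 (1657 ± 317 against 1343 ± 461 RPM) and mir-58.2 (152 ± 13.2 against 97.6 ± 26.2 RPM) were not called. All RNase libraries still lay above all wild type libraries in the mir-81 and mir-82 bin and in the mir-58.2 bin. In the mir-58.1 bin the groups overlapped. In the mir-35 family, of germline and embryo, the bin of mir-35 to mir-41 was at 582, 978 and 821 RPM against 503 to 680 RPM and was not called (0.44, SE 0.25). The mir-42 bin, which also holds mir-43 to mir-45, was higher (3471 ± 660 against 1396 ± 656 RPM, 1.31, SE 0.39), a call that ended without RNase replicate 2 (adjusted p = 0.0621).

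**Figure D4:**
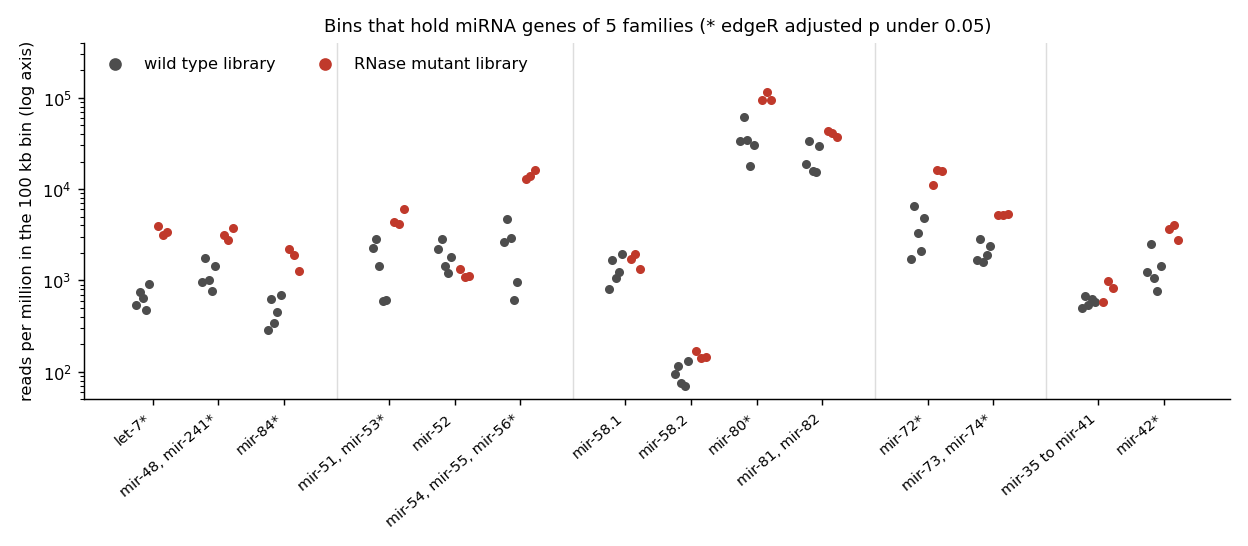
RPM (log axis) in 14 bins that hold miRNA genes of 5 families, 1 point per library (5 wild type and 3 RNase), grouped by family, with a star for an edgeR adjusted p under 0.05. The 3 let-7 family bins and the mir-54 bin show no overlap between groups, while the mir-52, mir-58.1 and mir-35 bins overlap.

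Bins with other marker miRNAs moved less. The bins of lin-4 (timing; 899 ± 160 against 603 ± 215 RPM), lsy-6 (a taste neuron; 71.5 ± 3.51 against 69.5 ± 18.2 RPM), mir-1 (muscle; 5458 ± 1438 against 7921 ± 2944 RPM) and mir-124 (neurons; 571 ± 55.6 against 467 ± 126 RPM) were not called. The mir-71 bin was at 3553, 3735 and 3640 RPM against 696 to 2699 RPM (1.10, SE 0.35, edgeR adjusted p = 0.0218), a call that ended without any one RNase library (adjusted p 0.0521 to 0.0651). Of the 182 bins with a miRNA gene, 36 were higher (19.8%) and 21 lower (11.5%), against 14.4% and 16.6% of all bins. Their median was 0.10 against -0.12 over all bins, and -0.14 against -0.35 with library sizes without the 3 largest bins. Of the 252 bins of highest read level, 30.6% were higher and 19.8% lower. Among these, the 66 with a miRNA gene had a median of 0.53 and the 186 without one 0.07. The 116 miRNA gene bins of lower read level had a median of -0.01, with 11.2% higher and 11.2% lower. The part of read level in the miRNA counts was not tested. Among other bins with a miRNA gene, IV 16400001 to 16500000 with mir-1021 and 193 piRNA genes (613 ± 209 to 104 ± 16.5 RPM) and X 13800001 to 13900000 with mir-793, a further let-7 family member (65.4 ± 21.2 to 367 ± 73.9 RPM) had 2 of the largest changes, -2.55 (SE 0.31) and 2.48 (SE 0.34). Together the bins with a miRNA gene held 52.9 ± 0.641% of reads in the mutant and 49.3 ± 3.52% in wild type, with overlapping groups.

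Bins of histone genes moved in both directions. The genes were taken by the symbol his- alone, without separating replication-dependent histones from other histones. Of 17 such bins, 6 were higher and 3 lower, against 14.4% and 16.6% of all bins, and their median of -0.18 was near that of all bins. V 8500001 to 8600000, with 5 histone genes and also mir-357 and mir-358, was at 1431, 1452 and 1190 RPM against 226, 425, 285, 239 and 252 RPM (2.25, SE 0.25, edgeR adjusted p = 4.16e-07). V 8800001 to 8900000, with 14 histone genes, was at 2391, 2089 and 2900 RPM against 513 to 1577 RPM (1.35, SE 0.31), and IV 11300001 to 11400000, with 8 histone genes and mir-59, at 1492, 1556 and 932 RPM against 320 to 662 RPM (1.45, SE 0.33). The null held 320 ± 37.7, 1703 ± 217 and 487 ± 179 RPM in the same order. In V 8800001 to 8900000 the null was itself higher than wild type (0.82, edgeR adjusted p = 0.0218), and the RNase mutant was not called against the null (0.53, adjusted p = 0.252). In V 8500001 to 8600000 and IV 11300001 to 11400000 the RNase mutant was higher than the null (2.08 and 1.45, adjusted p = 1.27e-06 and 0.00244). II 13800001 to 13900000, with 13 histone genes, was at 3361, 1833 and 2594 RPM in the RNase libraries, against 610 to 792 RPM in wild type replicates 1 to 4 and 8195 RPM in replicate 5. It was not called (0.22, SE 0.70). Among the bins called lower, X 14400001 to 14500000 went from 906 ± 705 to 138 ± 61.5 RPM (-2.72, SE 0.47), with wild type replicate 5 highest at 2134 RPM. It holds 1 histone gene beside 4 tRNA genes, 1 snRNA gene and 1 snoRNA gene. The null was itself lower than wild type in this bin (-1.09, edgeR adjusted p = 0.0200). There the RNase mutant was lower than the null (-1.63, edgeR adjusted p = 0.00972).

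Major sperm protein genes mark the male germline. Of the 15 bins that hold them, 0 were higher and 3 lower (20.0%), near the 16.6% lower among all bins, where 14.4% were higher. Their median was -0.32 against -0.12 over all bins. Bin IV 10100001 to 10200000 fell from 2895 ± 1057 to 657 ± 43.6 RPM (-2.14, SE 0.35). The 15 bins together held 0.988 ± 0.0265% of reads in the mutant and 1.41 ± 0.312% in wild type, with wild type replicate 3 (0.867%) below the mutant and the other wild type libraries above it. These are small RNA reads and give no level of the mRNAs.

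Genes of the piRNA and secondary small RNA pathway were looked up by symbol, and 37 of 41 listed genes were found in 35 bins. Of these bins 2 were higher (5.71%), 9 lower (25.7%) and 24 not called, against 14.4% higher and 16.6% lower among all bins. Their median of -0.10 was close to the -0.12 of all bins. The bin of xol-1, the switch gene of male fate and a known piRNA target, rose from 43.5 to 152 RPM in wild type to 324, 477 and 276 RPM (1.80, SE 0.35, edgeR adjusted p = 0.000463). The bin of meg-3, a P granule gene, passed narrowly (0.93, SE 0.35, adjusted p = 0.0495) and was called in 5 of the 17 other fits. The bin of prg-1 itself was at 726, 730 and 743 RPM against 224 to 592 RPM, without overlap but not called (0.66, SE 0.27, adjusted p = 0.0738); it was called higher in 5 of the 17 other fits, among them that with TMM factors (0.82, adjusted p = 0.000994). The null held 175 ± 37.9 RPM there, and the RNase mutant exceeded the null by 2.06 (adjusted p = 5.43e-06).

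The 9 lower bins of this list include some with genes for piRNA precursor transcription and processing. These were picked out by function, 24 of the 35 bins were not called, and each bin also holds genes outside the list. The bin of tofu-1, a precursor processing factor, is the V 9900001 bin given above. That of tofu-6, a member of the complex that processes piRNA 5′ ends, fell from 702 ± 268 to 269 ± 11.6 RPM (-1.38, SE 0.31). That of parn-1, the 3′ trimmer of piRNAs, fell from 601 ± 153 to 302 ± 23.8 RPM (-0.99, SE 0.26) and also holds 1 histone gene. That of erh-2, from the same 5′ end complex as tofu-6, fell from 616 ± 126 to 310 ± 6.31 RPM (-0.99, SE 0.28). The null was low as well in the tofu-1 bin (89.5 ± 42.3 RPM) and the parn-1 bin (217 ± 36.4 RPM). In neither was the RNase mutant called against the null (edgeR adjusted p = 0.865 and 0.197). Null values of the other bins are not given here. The bin of drh-3, a helicase of secondary small RNA synthesis, fell from 879 ± 313 to 394 ± 29.0 RPM (-1.16, SE 0.30). The calls in the bins of alg-4, prde-1, wago-4 and znfx-1 each ended without RNase replicate 2 (adjusted p = 0.0539, 0.124, 0.169 and 0.119) and against wild type replicates 1 to 3 alone.

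The order of the most abundant bins changed between genotypes. In wild type the first was IV 12700001 to 12800000, with 4 snRNA genes and mir-265, at 117329, 94415, 272972, 86595 and 57052 RPM. It was at 64221, 70021 and 82396 RPM in the RNase libraries, inside the wild type range, and was not called. I 15000001 to 15100000 with 4 rRNA genes (62144 ± 19499 to 35460 ± 19198 RPM) and V 17100001 to 17200000 with 14 rRNA and 12 snRNA genes (57350 ± 72405 to 11664 ± 3161 RPM) were not called either; the latter was at 7190 to 17798 RPM in wild type replicates 1 to 3 and at 179063 and 69312 RPM in replicates 4 and 5. II 7800001 to 7900000 with mir-57 was at 39134 ± 8225 RPM against 44618 ± 16922 RPM. II 3300001 to 3400000 with mir-260 was among the first 10 of the mutant only, at 14601 ± 2281 RPM against 5602 ± 1794 RPM (1.38, SE 0.35, edgeR adjusted p = 0.00475). Of the other bins among the first 10 of either genotype, these were not called: IV 9300001 to 9400000 (18823 ± 4267 against 29711 ± 21547 RPM) and IV 4700001 to 4800000 (10589 ± 1501 against 19616 ± 14595 RPM).

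By chromosome, reads from III and X took a larger share in each RNase library. Chromosome III held 19.0, 20.6 and 19.1% of reads in the RNase libraries and 9.77, 14.9, 8.54, 9.57 and 12.1% in wild type, and chromosome X 12.5, 11.4 and 11.3% against 6.47, 8.56, 6.30, 5.66 and 7.68%. Chromosome I held 17.1, 18.2 and 16.3% against 22.0 to 33.4%, below every wild type library. Each difference gave an exact permutation p of 0.0357 (adjusted p = 0.0857 over 12 shares). Against wild type replicates 1 to 3 the ratios were 1.77, 1.65 and 0.665 for III, X and I, close to the pooled 1.78, 1.69 and 0.658.

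The shares of III and I no longer stood apart without 1 bin each. Without the mir-80 bin, chromosome III held 9.45 ± 0.263% in the mutant and 7.45 ± 1.67% in wild type, and the lowest RNase library (9.14%) no longer exceeded the highest wild type library (9.15%). Without the mir-4931 bin chromosome I held 17.1 ± 0.944% against 22.2 ± 4.16%, and the groups overlapped. Without the bins of mir-81 and mir-54, chromosome X still held 5.91 to 6.97% against 4.05 to 4.73%. Outside all bins with a miRNA gene, X held 3.59 to 4.21% in the mutant against 2.78 to 3.33% (exact permutation p = 0.0357 for wild type against mutant, adjusted p = 0.0857). Chromosome II (15.4 ± 0.517 against 14.4 ± 3.04%), IV (26.7 ± 1.31 against 28.5 ± 10.7%) and V (8.80 ± 0.831 against 12.1 ± 7.60%) overlapped between groups.

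**Figure D5:**
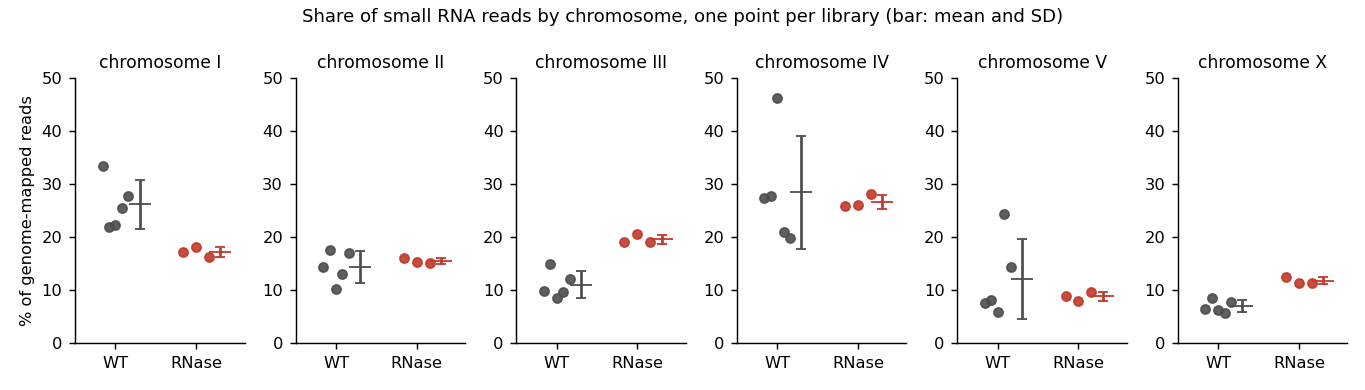
Percentage of genome-mapped reads on each nuclear chromosome, 1 point per library with the mean and SD beside them (5 wild type and 3 RNase libraries). RNase libraries lie above wild type on III (19.0 to 20.6%) and X (11.3 to 12.5%) and below on I (16.3 to 18.2%).

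Set directly against null males, the RNase mutant differed in 213 of 1006 bins (21.2%, edgeR adjusted p under 0.05). Of the 145 bins higher than wild type, 64 were also higher than the null, 3 were lower and 78 were not called. Of the 167 bins lower than wild type, 33 were lower than the null, 12 higher and 122 not called. Both comparisons use the same RNase libraries, so these counts describe the bins and are no second test of them. In the null against the same wild type libraries, 129 of the 167 bins were also called lower and 6 higher. Of the 145 bins, 54 were called higher there and 9 lower. The share of all bins called in the null against wild type is not given here. The bins were also chosen with the same wild type libraries, which favours the same direction. Nothing is concluded from these overlaps. The let-7 bin was higher than the null by 2.36 (adjusted p = 1.73e-05) and the bin of mir-54 to mir-56 by 2.47 (adjusted p = 0.00142). For the mir-80 bin that difference was 1.02 (adjusted p = 0.144), and for the mir-258 bin it was -0.91 (adjusted p = 0.123).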

How the data were processed

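The submitters' processing notes name cutadapt 3.7 and FastQC 0.12.0. The sources used here give neither the aligner nor the rule for 21U only reads. The deposited files hold raw read counts, per the file headers: 4 totals per library (all, genome-mapped, piRNA, 21U only), sense and antisense counts for 15913 piRNA names, and counts in 100 kb bins of ce11. The authors also give piRNA reads as RPM, per 1000000 genome-mapped reads; RPM values here were recomputed from the counts. A single non-numeric cell of the per-piRNA counts was read as 0, and only measures that do not depend on row order were used.

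Bin counts went through the quasi-likelihood F test of edgeR 4.0.16 (R 4.3.3; 16 libraries of 4 genotypes in one fit, genome-mapped reads as library size, bins needed 10 reads or more in 3 libraries, which all of them passed). Standard errors are the size of the log2 fold change divided by the square root of F. DESeq2 1.42.0 was an alternative. The test was tried on simulated data. Single measures had exact two-sided permutation tests (scipy 1.17.1), adjusted by Benjamini-Hochberg over 9 measures or 12 shares. The shares and the fit without wild type replicates 3 and 4 were added after seeing the data. Gene positions are those of Ensembl 115 (WBcel235, which is ce11); 45 miRNA names, let-7 among them, came from the RefSeq table of that assembly.

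Named bins are the 10 largest rises and falls among called bins without overlap, the 10 with most reads in each genotype, the 5 largest gains and losses in RPM, 7 marker miRNA bins, and the 10 called miRNA bins with the largest change. Members and lists were chosen with earlier results of these data known. Libraries of a genotype differed far beyond counting noise (smallest chi-square per df 43.8).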

Additional observations from a re-analysis of the deposited data

Results flagged for a closer look

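For 137 values the 5 wild type libraries were compared, and in 13 of them 1 library stood apart from the other 4 by more than 0.710 of the group's whole range; chance gives about 1 in 20. RNase libraries, 3 in number, were not checked in this way. Of the 13, 8 were wild type replicate 3.

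In wild type replicate 4 the 100 piRNAs with most reads took 91.3% of sense piRNA reads, against 60.5 to 69.0% in the others. In bin IV 17000001 to 17100000 wild type replicate 2 had 2390 RPM and the others 1208 to 1376 RPM. In bin V 4200001 to 4300000 wild type replicate 1 had 660 RPM and the others 34.4 to 83.2 RPM. Wild type replicate 5 was high in 2 histone gene bins, with 8195 RPM in II 13800001 to 13900000 (610 to 792 RPM in the others) and 2134 RPM in X 14400001 to 14500000 (420 to 794 RPM).

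Wild type replicate 3 had 272972 RPM in bin IV 12700001 to 12800000, where the others had 57052 to 117329 RPM. Mitochondrial DNA held 0.507% of its reads, against 1.00 to 1.15% in the others and 0.531 ± 0.0889% in the RNase mutant. It was low in 6 bins of sperm protein, histone or pathway genes, none of them called. These were II 4800001 to 4900000 (395 RPM, others 1111 to 1400 RPM), III 12300001 to 12400000 (182 RPM, others 405 to 479 RPM) and IV 5200001 to 5300000 (346 RPM, others 691 to 771 RPM). The remaining 3 were IV 7100001 to 7200000, which holds rde-8 (177 RPM, others 385 to 420 RPM), IV 9700001 to 9800000 (186 RPM, others 308 to 338 RPM) and IV 10000001 to 10100000 (234 RPM, others 548 to 668 RPM). Without this library 38.0% of called bins were higher in the mutant, against 46.5% with it.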

How the results depend on the processing

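Of the 312 called bins none changed the sign of its fold in any of the 17 other fits. With 1 library left out, 221 to 297 of the 312 stayed called, fewest without RNase replicate 2. The number of all bins called in a fit ran from 222 to 363 with 1 library left out. It was 379 with TMM factors, 394 without the 3 largest bins in the library size, 312 without a filter and 269 with only the 8 libraries. It was 305 with wild type replicates 1 to 3, 308 with a factor for the form of the title, 410 with DESeq2 (999 bins with an adjusted p) and 310 without wild type replicates 3 and 4. Higher bins made up 46.5% of calls, 55.9% with TMM factors, 30.2% without the 3 largest bins, 38.0% without wild type replicate 3 and 37.1% without wild type replicates 3 and 4. Replicate numbers did not pair the libraries (correlation of deviations 0.03, 0.06 and 0.00); with the replicate block 291 bins were called (156 higher, 135 lower). With the replicate block the ratio for other sense reads was 2.55 (exact sign-flip p = 0.25, the smallest possible).

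The ratio for 21U only reads was 1.12 per 1000000 total reads in place of 0.860. It ran from 0.745 to 1.06 with 1 library left out, passing 1 without wild type replicate 2 (1.06) and without RNase replicate 3 (1.00), and was 0.720 with wild type replicates 1 to 3. Shares that overlapped between groups turned as well: chromosome II to 0.999 and IV to 1.11 without wild type replicate 3 (with 1 library left out, 0.999 to 1.13 and 0.872 to 1.11), chromosome V to 1.22 with wild type replicates 1 to 3 and with the replicate block, and cluster 2 to 1.03, 1.01 and 1.00 without wild type replicate 2, wild type replicate 5 and RNase replicate 2 (range 0.915 to 1.03). The cause was not tested. With 1 library left out the smallest possible p is 0.0571 or 0.0952, so single measures then cannot pass. The lowest depth was 882 piRNA reads, in wild type replicate 4.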
